A study of Mus musculus with 19 samples.

Results

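Interneuron identity genes are the genes that mark the GABA-releasing cells of the hippocampus, and 10 of them were followed here through RNA-seq and ribosome profiling of hippocampal slices. They were chosen by symbol, as the rows for Gad1, Gad2, Slc32a1, Pvalb, Calb1, Calb2, Reln, Lhx6, Erbb4 and Nos1 in count tables of 20436 genes. All 10 were listed in both tables, and all 10 passed the filter on low counts in both assays. The slices came from wild-type male mice of postnatal day 28 to 42 in every group. They were kept in vehicle (artificial cerebrospinal fluid) or in 100 µM DHPG, an agonist of group 1 metabotropic glutamate receptors, for 5 min, and cycloheximide was added before freezing. Per the study's methods, batches 1 to 5 were made from slices in which CA3 had been left in place. The replicate numbers used here were taken to be those batches, which the sample titles do not state. Slices of 6 mice were pooled, so a library stands for a pool and not an animal. Total RNA depleted of rRNA gave 4 basal and 5 DHPG RNA-seq libraries, and nuclease digestion gave 5 basal and 5 DHPG libraries of ribosome-protected fragments (RPF). The libraries held 4870813 to 7793244 counts for RNA and 5692064 to 22092434 for RPF. The replicate numbers ran across both treatments and both assays, and no basal RNA library of replicate 5 was analysed here.

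Inhibitory interneurons are a small share of hippocampal neurons, and in a slice lysate their mRNAs are diluted by those of pyramidal cells, granule cells and glia. All of them make GABA from glutamate with the decarboxylases GAD67 and GAD65 and load it into vesicles with the transporter VGAT, while calcium-binding proteins, peptides and receptors divide them into classes. The 10 genes differ in how strictly they mark interneurons. Gad1, Gad2, Slc32a1, Pvalb and Lhx6 are largely restricted to GABA neurons in this region, whereas Calb1 is also made by CA1 pyramidal and dentate granule cells, Calb2 by mossy cells and thalamic neurons, Reln by Cajal-Retzius cells, and Erbb4 and Nos1 by other cells at lower levels. In such bulk samples, fewer cells of a type and less RNA per cell cannot be told apart.

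The ribosome-protected fragments were counted by the authors on coding sequences without their first and last 30 bases, so an RPF value covers the inside of the reading frame, whereas an RNA value covers the whole transcript. The first 90 coding bases are shown for the genes at the extremes of base composition among the 10, Calb1 and Slc32a1, with the uncounted bases in lower case and the first counted bases in capitals (GENCODE transcripts on GRCm38, both on the plus strand).
Calb1: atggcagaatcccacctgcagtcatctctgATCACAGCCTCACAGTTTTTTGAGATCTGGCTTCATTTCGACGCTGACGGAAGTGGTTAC
Slc32a1: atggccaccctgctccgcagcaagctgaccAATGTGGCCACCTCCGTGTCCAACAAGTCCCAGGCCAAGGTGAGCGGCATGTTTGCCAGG
Calb1 lies on chromosome 4 from 15881264 to 15908064, has 11 exons, and its transcript of 4222 bases has 783 coding bases and a 3′ UTR of 3301 bases. Its transcript held 36.8% G or C, and only 0.466% of the genes tested in RNA had a lower share. Slc32a1 lies on chromosome 2 from 158610767 to 158615748, has 2 exons, and its transcript of 2797 bases with 1575 coding bases held 61.9% G or C, above 97.7% of genes. The other 8 ran from 39.9% for Erbb4 to 56.4% for Nos1, against a median of 50.8% over the genes tested. These differences in composition are given here because the libraries also differed in how their values depended on it, as described with the replicates.

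The enzymes and the vesicle transporter of GABA release were all well measured in basal slices. Gad1, the gene of GAD67, lies on chromosome 2 from 70553072 to 70602014 and had 356, 345, 303 and 373 CPM (counts relative to the TMM-scaled library size) in basal RNA replicates 1 to 4, and 482, 452, 468, 508 and 448 CPM in basal RPF replicates 1 to 5. Gad2, the gene of GAD65 on chromosome 2 from 22622205 to 22693874, had 120, 112, 92.8 and 133 CPM in RNA and 178, 183, 191, 182 and 155 CPM in RPF. Slc32a1, the gene of VGAT, had 67.5, 78.9, 84.4 and 44.9 CPM in RNA and 119, 116, 115, 117 and 108 CPM in RPF. In these basal libraries the 3 genes were thus tight in RPF and wider in RNA, where Gad1 and Gad2 were lowest in replicate 3 while Slc32a1 was highest there. The coefficient of variation over basal RPF libraries was 5.13% for Gad1, 7.62% for Gad2 and 3.64% for Slc32a1, against a median of 10.2% over all genes, and in basal RNA it was 8.75%, 14.8% and 25.4%, against a median of 18.0%. In DHPG RNA it was 13.9%, 13.6% and 9.91%, against a median of 16.0%, so the width of Slc32a1 RNA was seen only in basal libraries.

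The calcium-binding protein genes were higher in RPF than in RNA, each in CPM relative to its own assay's total. Calb1, the gene of calbindin, had 79.9, 42.9, 39.7 and 87.0 CPM in basal RNA and 349, 373, 355, 411 and 355 CPM in basal RPF. Calb2, the gene of calretinin on chromosome 8 from 110137502 to 110168210, had 40.5, 36.5, 45.1 and 41.9 CPM in RNA and 110, 91.3, 86.0, 114 and 98.5 CPM in RPF. Pvalb, the gene of parvalbumin and the marker of fast-spiking basket cells, lies on chromosome 15 from 78191114 to 78206400 and had 18.95, 21.8, 22.7 and 22.6 CPM in RNA and 45.8, 52.6, 46.9, 41.4 and 43.99 CPM in RPF. Calb1 RNA fell into a low pair of libraries (replicates 2 and 3) and a high pair (replicates 1 and 4) that did not meet, whereas its RPF values did not follow that split. The Pvalb RNA values rested on 106 to 160 counts per library, for which counting alone gives a coefficient of variation of 8.70%, close to the 8.14% observed.

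The secreted, receptor and signalling genes had lower mean CPM in RPF than in RNA, each relative to its own assay's total. Reln, the gene of the extracellular protein reelin on chromosome 5 from 21884454 to 22344702, had 237, 324, 269 and 196 CPM in basal RNA and 211, 262, 227, 158 and 185 CPM in basal RPF. Erbb4, the gene of the neuregulin receptor on chromosome 1 from 68032186 to 69108059, had 102, 108, 75.6 and 113 CPM in RNA and 73.3, 91.4, 82.6, 60.2 and 74.1 CPM in RPF. Nos1, the gene of neuronal nitric oxide synthase on chromosome 5 from 117781032 to 117958840, had 152, 128, 119 and 136 CPM in RNA and 124, 105, 107, 128 and 99.3 CPM in RPF. Reln was highest in replicate 2 and lowest in replicate 4 in both assays, while Erbb4 was lowest in replicate 4 in RPF and highest there in RNA. Lhx6, the transcription factor gene of interneurons born in the medial ganglionic eminence, on chromosome 2 from 36081953 to 36105408, was the lowest of the 10, with 7.35, 10.5, 9.26 and 7.34 CPM in RNA and 10.1, 9.99, 8.13, 10.9 and 9.86 CPM in RPF. It rested on 45 to 60 counts per basal RNA library, and counting alone gives a coefficient of variation of 13.9% there, against 18.0% observed.

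**Figure D1:**
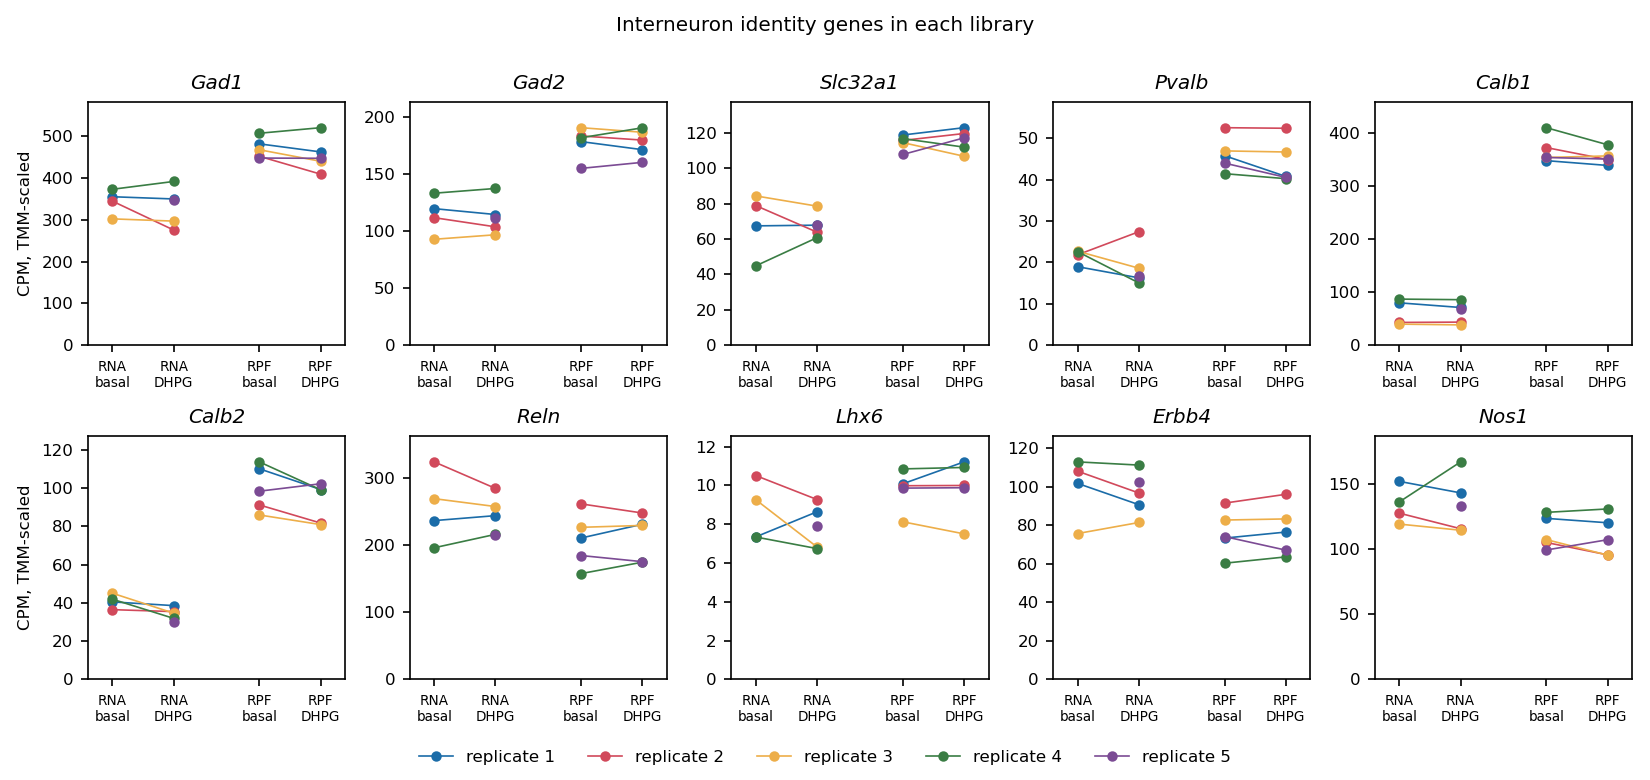
Each panel plots one gene in TMM-scaled CPM from 0, with a point per library, colour for the replicate number and a line joining the basal and DHPG libraries of the same number. Calb1 RNA is near 40 CPM in replicates 2 and 3 and from 67.9 to 87.0 CPM in the other libraries, while its RPF lies between 340 and 411 CPM, and in no panel do the basal and DHPG libraries of an assay separate.

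Per length, the order of the 10 genes differed between the assays. On the scale of CPM per kb of transcript, Gad1 led in RNA with 103 ± 8.97 (SD, n = 4), followed at a distance by Nos1 (29.1 ± 3.05), Calb2 (28.6 ± 2.49), Slc32a1 (24.6 ± 6.26), Pvalb (22.02 ± 1.79), Reln (21.9 ± 4.63), Gad2 (19.9 ± 2.94) and Calb1 (14.8 ± 5.82). From Nos1 to Erbb4, each neighbour in this order overlapped the next over its libraries, whereas Gad1 stood above and Lhx6 (2.58 ± 0.464) below all others. On the scale of CPM per kb of counted coding sequence, Calb1 led in RPF with 510 ± 35.3 (SD, n = 5), then Gad1 (274 ± 14.1), Pvalb (171 ± 15.3), Calb2 (133 ± 15.8), Gad2 (105 ± 7.99) and Slc32a1 (75.8 ± 2.76), with no overlap between neighbours. Nos1 (26.0 ± 2.89), Reln (20.2 ± 3.85) and Erbb4 (19.8 ± 3.01) overlapped as neighbours, and Lhx6 (8.77 ± 0.900) was again lowest. Among all genes tested, Calb1 was above 97.5% in RPF and above 62.2% in RNA, Gad1 was above 94.5% and 95.01%, and Lhx6 was above 33.7% and 18.99%. The place of Nos1 in RNA depends on its transcript, since 4591 bases were used and its longest coding transcript has 10123.

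**Figure D2:**
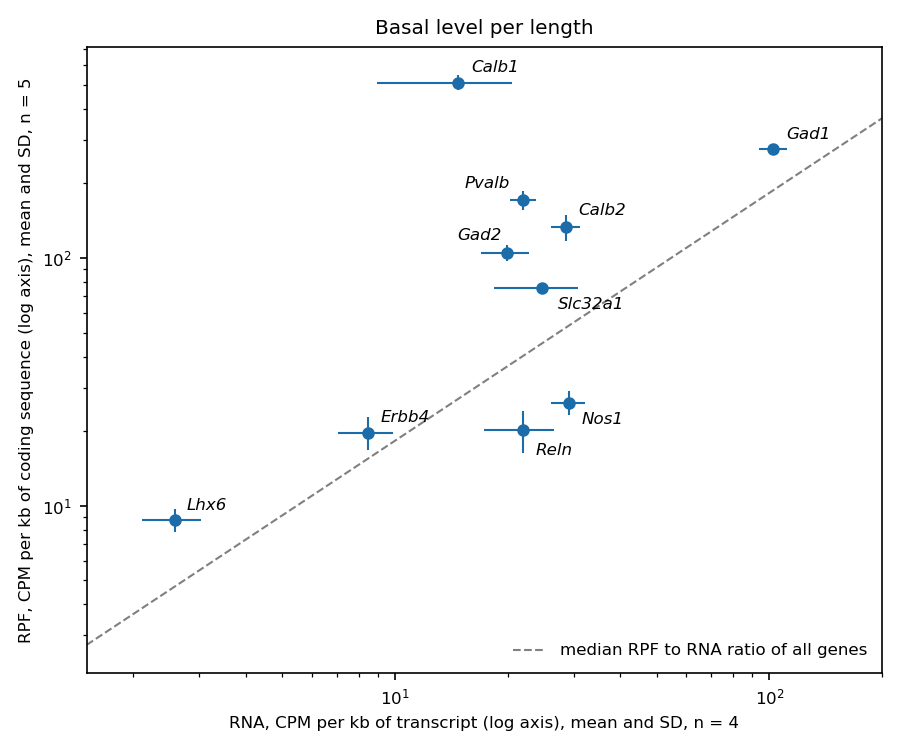
Basal RNA in CPM per kb of transcript (x axis, log scale, mean and SD of 4 libraries) is plotted against basal RPF in CPM per kb of coding sequence (y axis, log scale, mean and SD of 5 libraries), with the median ratio of all genes dashed. Calb1 and Pvalb lie farthest above the dashed line and Reln and Nos1 lie below it.

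The RPF to RNA ratio, taken per length within each basal replicate with both libraries, ranks mRNAs by ribosome load on a relative scale. Over 12222 genes its median was 0.87 on the log2 scale, with quartiles of -0.07 and 1.90. Calb1 had log2 ratios of 4.67, 5.67, 5.71 and 4.79 in replicates 1 to 4, a mean of 5.21 ± 0.56 (SD, n = 4), which was above 99.1% of genes and 20.2-fold over the median gene. It was high in every replicate, and the gap of about 1 log2 unit between replicates 2 and 3 and replicates 1 and 4 repeats the split of its RNA. Its value rests on an RNA length of 4222 bases, 3301 of them in the 3′ UTR, and base composition was not corrected for. The study's own translation efficiency mapped both assays to coding sequence. Pvalb, the next, had 3.13, 3.12, 2.90 and 2.73, a mean of 2.97 ± 0.19 that was above 90.1% of genes.

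Gad2 and Gad1 encode enzymes of the same reaction but differed in this ratio. Gad2 had 2.34, 2.48, 2.80 and 2.21 (mean 2.46 ± 0.25, above 83.8% of genes), and Gad1 had 1.40, 1.36, 1.59 and 1.41 (mean 1.44 ± 0.11, above 64.9%). The lowest Gad2 value was above the highest Gad1 value, although with the median length over coding transcripts in place of the main transcript the Gad1 mean was 1.96. Slc32a1 had 1.702, 1.44, 1.33 and 2.26 (mean 1.68 ± 0.42), a range that held the whole range of Gad1. The ratios of Calb2 (mean 2.21 ± 0.24) and Lhx6 (1.77 ± 0.38) overlapped with both neighbours in the order, and that of Erbb4 (1.24 ± 0.43) overlapped with Gad1 above it but not with Reln below it, and all 3 means were above the median gene. Reln and Nos1 were below it, with means of -0.08 ± 0.07 and -0.12 ± 0.10, above 24.7% and 23.8% of genes. With the longest coding transcript as its RNA length, an alternative chosen after seeing the data, Nos1 was at 1.02. The median of 0.87 was taken on main transcripts, and a median on longest transcripts is not reported here. The place of Nos1 below the median of 0.87 thus depends on which transcript is in the slices.

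**Figure D3:**
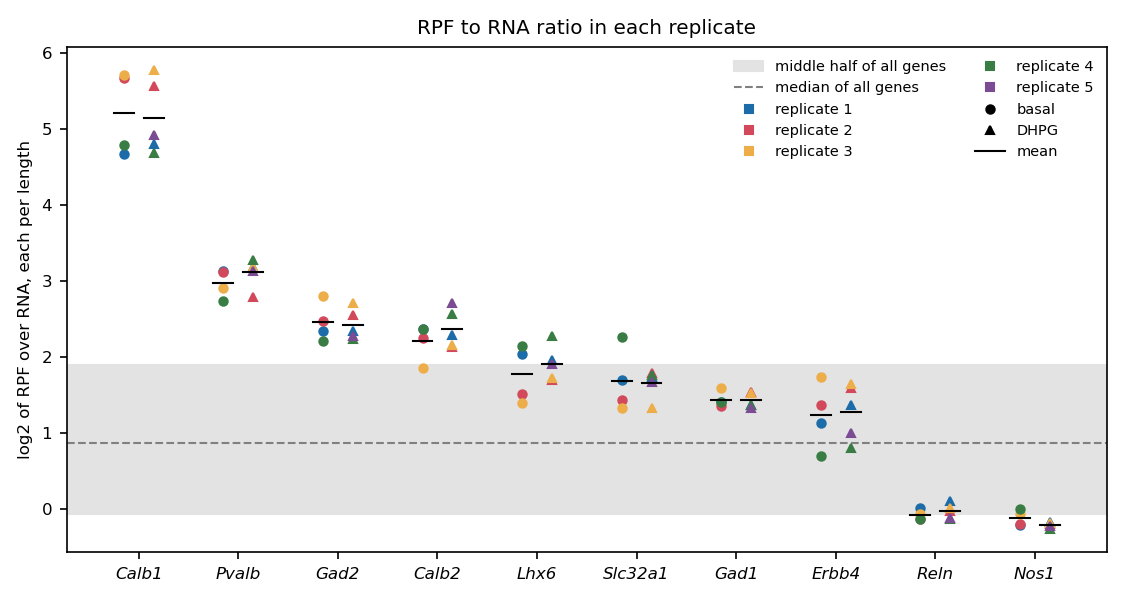
The log2 ratio of RPF to RNA, each per length, is plotted for each gene, with circles for basal and triangles for DHPG replicates, colour for the replicate number, short lines for means, and the median (dashed) and middle 50% (grey) of all genes behind. Calb1 is at or above 4.67 in every replicate, and Reln and Nos1 are the 2 genes with means below the dashed line.

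Many of the 10 genes differed between replicate numbers. These numbers were taken here as the batches of the study's methods, which the sample titles do not state. Whether basal and DHPG libraries of the same number came from the same mice is not stated either. In an edgeR quasi-likelihood test of the replicate terms, 7 of the 10 genes passed an adjusted p of 0.05 in RNA, where 48.1% of all genes did, and 9 of 10 in RPF, where 48.3% did. The 10 genes were not tested as a group against that background. In RNA the fold between the highest and the lowest replicate was 2.21 for Calb1 (edgeR adjusted p = 5.03e-09), 1.56 for Slc32a1 (adjusted p = 0.0036), 1.47 for Reln (adjusted p = 0.000347), and from 1.28 to 1.43 for Gad1, Gad2, Erbb4 and Nos1. Pvalb, Calb2 and Lhx6 did not pass in RNA, with folds of 1.45, 1.32 and 1.39 and edgeR adjusted p values of 0.133, 0.456 and 0.435. Replicate 5 had only a DHPG library in RNA, so its RNA mean holds no basal value. That mean was the lowest for Pvalb and Calb2, whose folds thus mix replicate with treatment. For Calb2 it was 4.91 log2 CPM, against 5.18 to 5.32 in replicates 1 to 4. Without replicate 3, Gad1, Gad2, Slc32a1, Erbb4 and Nos1 no longer passed in RNA (edgeR adjusted p = 0.155, 0.085, 0.11, 0.317 and 0.14). Without replicate 4, Gad1, Gad2 and Slc32a1 no longer passed (0.0529, 0.080 and 0.127), and Pvalb passed (0.0382). Over all genes, the RNA calls also fell, from 6220 to 3283 without replicate 3 and to 5599 without replicate 4. Calb1 and Reln passed in RNA with any single replicate left out. In RPF the folds were 1.53 for Reln (edgeR adjusted p = 1.33e-12) and 1.51 for Erbb4 (adjusted p = 1.97e-09), and 1.15 to 1.39 for the other 7 that passed. Slc32a1 did not pass in RPF, with a fold of 1.09 (edgeR adjusted p = 0.329). Of the 9 RPF calls, 5 were lost on leaving out 1 replicate, Pvalb without replicate 2 (edgeR adjusted p = 0.104), Lhx6 without replicate 3 (0.784), Gad1 and Calb1 without replicate 4 (0.127 and 0.611) and Gad2 without replicate 5 (0.311). The RPF calls lost over all genes in those fits are not reported here, so these losses are not particular to the 10 genes.

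Reln and Nos1 differed between replicates in both assays, although the RNA call of Nos1 was lost without replicate 3 (edgeR adjusted p = 0.14). Reln RNA in DHPG libraries was 244, 285, 258, 216 and 216 CPM and its RPF 231, 248, 230, 175 and 176 CPM, and in both assays and both treatments replicate 2 was highest. Nos1 was lower in replicates 2 and 3 than in replicates 1 and 4 in both assays, with DHPG values of 143, 116, 114, 167 and 133 CPM in RNA and 120, 95.6, 95.3, 131 and 107 CPM in RPF. For both genes the RPF to RNA ratio did not pass a test of its own replicate terms (edgeR adjusted p = 0.566 for Reln and 0.758 for Nos1), which does not show that RNA and RPF moved by equal amounts.

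Calb1 and Erbb4 differed between the assays in which replicates were high. Calb1 RNA in DHPG libraries was 71.1, 43.5, 38.2, 85.9 and 67.9 CPM, against RPF of 340, 351, 358, 379 and 352 CPM, so the low RNA of replicates 2 and 3 had no counterpart in RPF. Erbb4 RNA was 90.6, 96.7, 81.4, 111 and 103 CPM and its RPF 76.4, 96.0, 83.2, 63.5 and 67.0 CPM, with replicate 4 highest in RNA and lowest in RPF. The replicate terms of the ratio passed for 5 of the 10 genes, Calb1 (edgeR adjusted p = 8.31e-10), Erbb4 (2.97e-07), Gad2 (0.000112), Slc32a1 (0.00695) and Calb2 (0.0331), where 50.1% of all genes passed. This test was added after the values were seen.

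Base composition moved with the replicates. Across genes, the deviation of a library from the mean over libraries was correlated with the G and C share of the transcript by Spearman's rho of 0.27 to 0.65 in the RNA libraries of replicates 2 and 3 and of -0.60 to -0.20 in those of replicates 1, 4 and 5. In RPF the signs were the other way, with -0.46 to -0.26 in replicates 2 and 3 and 0.06 to 0.45 in the rest. These are correlations across 12455 genes for RNA and 12721 for RPF, which are not independent replicates. With each library's trend with composition and transcript length removed (an alternative chosen after seeing the data), 3 of the 10 genes passed in RNA (Calb1, Reln and Nos1), and all 10 passed in RPF. Gad1, Gad2, Slc32a1 and Erbb4 no longer passed in RNA, with edgeR adjusted p values of 0.292, 0.618, 0.233 and 0.0725. The share of all genes that passed in these fits is not reported here, so the counts are not a result about the 10 genes.

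The cell type markers moved with the replicates too. The summed CPM of 5 oligodendrocyte markers was 2041 and 2352 in the RNA libraries of replicate 4 and 3470 to 5237 in the others, and in RPF 3314 and 3825 against 5482 to 8452, so replicate 4 was low in both assays. Of these markers 0 passed with DHPG in RNA and 1 in RPF, where 0.00773% and 0.22% of all genes passed. By replicate mean, Reln was also lowest in replicate 4 in both assays, whereas Erbb4 was highest there in RNA and lowest in RPF. The 6 dentate granule cell markers summed to 364 to 414 CPM in the RNA of replicates 2 and 3 and to 426 to 485 CPM in that of the others, the side on which Calb1 RNA lay, but the 4 CA1 pyramidal markers were on the other side, at 560 to 671 CPM against 378 to 470 CPM. In RPF the sum of the CA1 markers was between 425 and 448 CPM, although each of the 4 passed the test of replicate terms there (edgeR adjusted p = 4.73e-09 for Pou3f1 to 0.0098 for Fibcd1). The 4 mossy cell markers summed to 7.42 to 14.3 CPM in RNA and 10.5 to 15.4 CPM in RPF, and the 4 Cajal-Retzius markers to 2.06 to 4.78 and 2.56 to 4.04 CPM, so the sums for both cell types, which also make Calb2 or Reln, were low, and none of their markers was at 0 in all libraries of a group. The part of these cells in the values of Calb1, Reln and Erbb4 was not tested. The 11 interneuron markers, which include 6 of the 10 genes, summed to 720 to 834 CPM in RNA and 1326 to 1490 CPM in RPF, and none was at 0 in all libraries of a group.

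**Figure D4:**
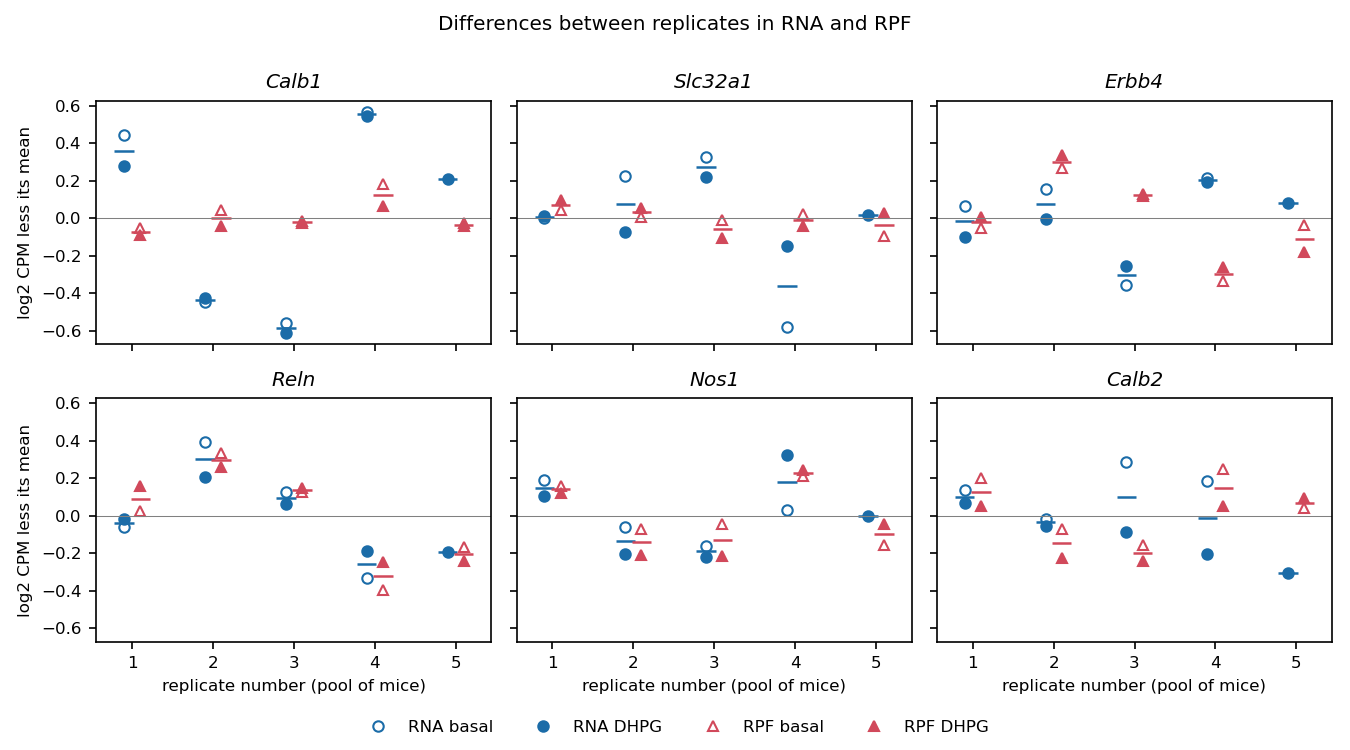
For 6 genes, log2 CPM less the gene's mean over its libraries is plotted by replicate number, with circles for RNA, triangles for RPF, open symbols for basal, filled for DHPG, and bars for the replicate mean. Reln is highest in replicate 2 in both assays, Erbb4 in replicate 4 is highest in RNA and lowest in RPF, and for Calb1 the RNA spreads over 1.14 log2 units between replicate means and the RPF over 0.20.

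With DHPG, no gene of the 10 passed in RNA at an adjusted p of 0.01, in RPF at 0.05 or in the RPF to RNA ratio at 0.05 (edgeR, replicate block), where 0.00773%, 0.22% and 0% of all genes passed. At an unadjusted p under 0.05 the 10 genes gave 1 in RNA, 1 in RPF and 0 in the ratio, against 8.02%, 10.8% and 6.69% of all genes. In no gene of the 10 did the basal and DHPG libraries separate without overlap in either assay, which 0.51% of genes did in RNA and 0.394% in RPF. The log2 fold changes ran from -0.23 to 0.01 in RNA (median -0.06, against 0.01 over all genes tested), from -0.10 to 0.02 in RPF (median -0.03, against 0.00) and from -0.06 to 0.14 in the ratio (median 0.03, against 0.00). Of the 10, 8 were on the lower side in RNA and 7 in RPF, where 47.9% and 48.6% of all genes were.

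The GABA genes had RPF intervals that all held 0. Gad1 was at 350, 276, 297, 392 and 347 CPM in DHPG RNA and 463, 410, 440, 521 and 448 CPM in DHPG RPF and overlapped its basal values in both assays. Its RPF changed by -0.05 on the log2 scale (SE 0.030, 95% interval -0.11 to 0.01, edgeR adjusted p = 0.557), lower in 4 of 5 pairs, which bounds a fall at 7.55% and a rise at 0.641%. Gad2 was at 114, 104, 96.7, 137 and 112 CPM in DHPG RNA and 171, 180, 187, 190 and 160 CPM in DHPG RPF, with an RPF change of 0.00 (SE 0.033, interval -0.07 to 0.07, edgeR adjusted p = 0.999). Slc32a1 was at 67.9, 63.9, 78.6, 60.8 and 68.1 CPM in DHPG RNA and 123, 120, 107, 112 and 117 CPM in DHPG RPF, with an RPF change of 0.01 (SE 0.037, interval -0.07 to 0.08, edgeR adjusted p = 0.962). In RNA the intervals of the 3 genes lay between -0.22 and 0.19, with 4 pairs of libraries in place of 5.

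Calb2 was the gene nearest to a difference. Its RNA was 38.6, 35.4, 34.6, 31.9 and 29.8 CPM with DHPG, lower than its partner in 4 of 4 pairs by 0.04 to 0.39 on the log2 scale, and the groups overlapped because the basal library of replicate 2 (36.5 CPM) lay below the highest DHPG library. The RNA change was -0.23 (SE 0.092, 95% interval -0.42 to -0.04, unadjusted p = 0.019 and adjusted p = 0.558 in edgeR). Its RPF was 99.4, 81.8, 81.0, 99.2 and 102 CPM, lower in 4 of 5 pairs and higher in replicate 5, a change of -0.10 (SE 0.039, interval -0.18 to -0.03, unadjusted p = 0.0108 and adjusted p = 0.312 in edgeR). Under ComBat by replicate followed by DESeq2, the study's own order of steps, the RPF change of -0.11 passed with a DESeq2 adjusted p of 0.0352, in a fit that called 427 RPFs in all. Over the alternatives its RPF adjusted p ran from 0.0352 to 1.0, leaving out DESeq2 with the block, which gave Calb2 no adjusted p. The 10 thalamus markers, whose cells include some that make Calb2, summed to 83.8 to 111 CPM in basal and 99.0 to 144 CPM in DHPG RNA. In RPF they summed to 127 to 161 and 133 to 218 CPM, and both assays went opposite to Calb2. Of these markers, 1 of 7 tested passed in RNA and 6 of 9 in RPF, all higher with DHPG. Over all genes, 0.00773% and 0.22% passed. Their part in the Calb2 values was not tested.

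The other 6 genes had RPF changes of -0.05 to 0.02. Pvalb RPF was 40.8, 52.4, 46.7, 40.2 and 40.5 CPM with DHPG, lower in 5 of 5 pairs but by -0.05 on average (SE 0.046, edgeR adjusted p = 0.736). Pvalb RNA was 16.3, 27.4, 18.6, 15.03 and 16.8 CPM, where replicate 2 stood apart above the other 4, and its change of -0.20 had the widest bound on a fall, 26.9% (SE 0.124, 95% interval -0.45 to 0.06, edgeR adjusted p = 0.703). That value turned on single replicates, at -0.37 without replicate 2 (edgeR adjusted p = 0.167) and -0.066 without replicate 4 (adjusted p = 0.996). Lhx6, at 8.65, 9.27, 6.82, 6.74 and 7.90 CPM in DHPG RNA and 11.2, 10, 7.504, 10.9 and 9.89 CPM in DHPG RPF, had intervals of -0.45 to 0.21 in RNA and -0.18 to 0.17 in RPF. At this depth its RPF interval still held a fall of 11.99% and a rise of 12.4%. Calb1 (RPF -0.05, SE 0.030), Nos1 (-0.05, SE 0.038), Reln (0.02, SE 0.034) and Erbb4 (0.01, SE 0.040) had RPF intervals within -0.13 and 0.09.

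The RPF to RNA ratio gave no call either. The largest change was that of Pvalb, 0.14 (SE 0.123, 95% interval -0.11 to 0.40, edgeR adjusted p = 0.853), higher in 3 of 4 pairs, and it was 0.29 without replicate 2 and 0.01 without replicate 4. Calb2 was at 0.12 (SE 0.094, adjusted p = 0.834) and Lhx6 at 0.11 (SE 0.169, adjusted p = 0.933), and 9 of 10 genes were on the higher side, where 50.5% of all genes were on the lower side. The tests of RNA, RPF and ratio share libraries, so the 3 sets of directions are not independent.

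**Figure D5:**
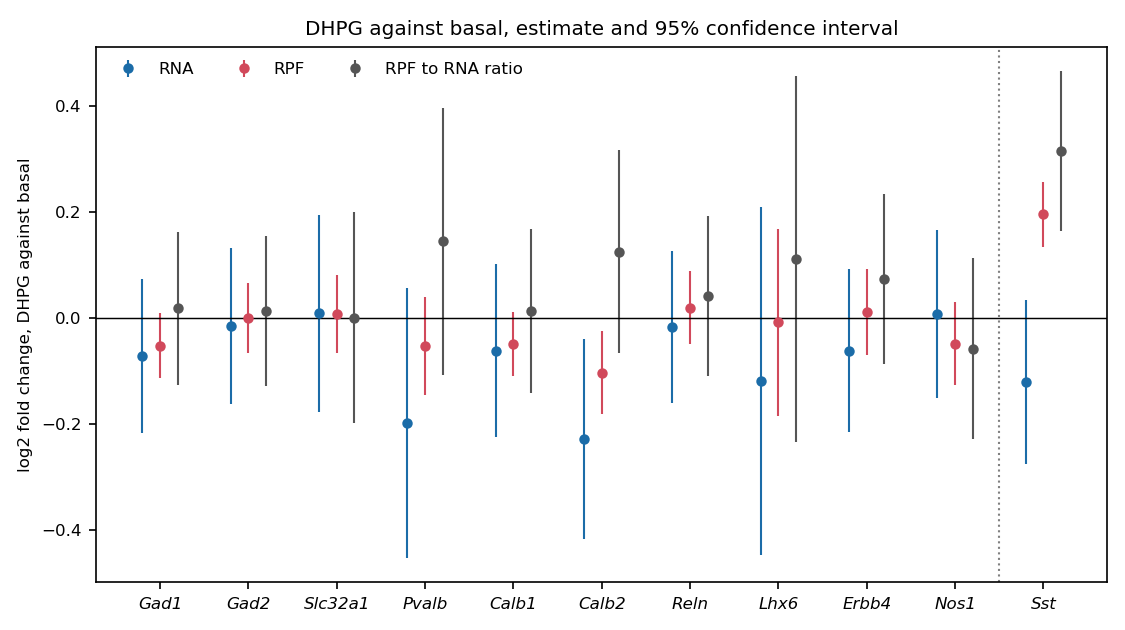
The log2 fold change of DHPG against basal (points) with its 95% confidence interval (lines) is plotted for RNA, RPF and the RPF to RNA ratio, for the 10 genes and, right of the dotted line, for Sst. The intervals of the 10 genes cross 0 except those of Calb2 in RNA and RPF, and Sst RPF lies at 0.20 with an interval of 0.13 to 0.26.

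Lists of genes that share the work of the 10 were examined beside them. Over all genes, 8.02% in RNA and 10.8% in RPF had an unadjusted p under 0.05 with DHPG. Of 8 genes of GABA synthesis, uptake and breakdown, all were tested and 0 passed in either assay, with medians of 0.01 in RNA and 0.00 in RPF. Abat, the GABA transaminase, was at 221 ± 19.5 CPM in basal and 223 ± 20.6 CPM in DHPG RPF (SD, n = 5 each). Of 17 interneuron transcription factor genes, 14 were tested in RNA and 16 in RPF, with 0 past the threshold and medians of 0.15 and 0.00. Among their most abundant members in RPF, the log2 change was 0.02 for Prox1, -0.07 for Satb1 and 0.02 for Adarb2. Prox1 was also one of the dentate granule cell markers used above, so its values are not those of interneurons alone. At an unadjusted p under 0.05 there was 1 of each list in each assay, on the higher side.

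Of 9 genes of fast-spiking cells, 0 passed in either assay and 0 had an unadjusted p under 0.05, with medians of 0.03 in RNA and 0.02 in RPF. The potassium channel genes Kcnc1 and Kcnc2, which let these cells fire fast, were at 65.0 ± 2.01 and 63.7 ± 1.66 CPM in basal RPF and at 65.6 ± 2.58 and 64.9 ± 3.57 CPM with DHPG, and Cntnap4 and the sodium channel gene Scn1a changed by 0.02 and 0.01. Of 11 genes of dendrite-targeting and caudal ganglionic eminence cells, 9 were tested in RNA and 10 in RPF, with 0 past the threshold and 1 and 2 with an unadjusted p under 0.05, all on the higher side, and medians of 0.01 and 0.04. Cnr1, the cannabinoid receptor of CCK cells, changed by 0.02 in RPF, Kit by 0.04, Cxcl14 by 0.05 and Id2, an inhibitor of helix-loop-helix factors, by 0.11 (SE 0.033, edgeR adjusted p = 0.191).

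Of 8 genes of the reelin and ErbB4 pathways, Reln and Erbb4 included, 0 passed in either assay, with 0 and 2 at an unadjusted p under 0.05 and medians of 0.08 in RNA and 0.02 in RPF. The reelin receptor gene Vldlr changed by 0.02 in RPF and Dab1, the adaptor of reelin receptors, by -0.06. Of 7 genes of nitric oxide signalling, Nos1 included, 0 passed and 0 had an unadjusted p under 0.05, with medians of -0.01 and -0.03. The guanylate cyclase subunit gene Gucy1b3, part of the receptor of nitric oxide, was at 220 ± 6.18 CPM in basal and 216 ± 9.41 CPM in DHPG RPF, Gucy1a2 changed by -0.03, and Nos1ap, an adaptor of the synthase, by -0.04.

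Of 7 interneuron neuropeptide genes, 1 passed, Sst in RPF, with 3 at an unadjusted p under 0.05 and all 7 on the higher side (median 0.07). Over all genes tested in RPF, 0.22% passed, 10.8% had an unadjusted p under 0.05 and 51.4% were on the higher side. In RNA 0 of the 7 passed, 0 had an unadjusted p under 0.05 and the median was -0.02. Sst encodes somatostatin, the peptide of dendrite-targeting interneurons. Its RPF was 382, 370, 351, 361 and 349 CPM in basal replicates 1 to 5 and 415, 429, 392, 408 and 429 CPM with DHPG, and every DHPG library lay above every basal library. The rise was 0.20 on the log2 scale (SE 0.030, 95% interval 0.13 to 0.26, edgeR adjusted p = 0.00066), higher in 5 of 5 pairs. Sst RNA was 93.3, 117, 122 and 77.8 CPM in basal replicates 1 to 4 and 98.7, 102, 105, 69.6 and 75.7 CPM with DHPG, overlapping, with a change of -0.12 (SE 0.075, edgeR adjusted p = 0.703) and lower values in 3 of 4 pairs. The RPF to RNA ratio was higher in 4 of 4 pairs, by 0.31 (SE 0.074, unadjusted p = 0.000184), and missed the threshold after correction over all genes (edgeR adjusted p = 0.350).

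With any single replicate removed, the RPF rise of Sst still passed (0.17 to 0.21, edgeR adjusted p = 0.0003854 to 0.018), with the composition trend removed (0.17, adjusted p = 0.003475) and with DESeq2 and the block (adjusted p = 2.904e-05), and of the alternatives run it was lost only without the replicate block (0.19, edgeR adjusted p = 1.0), a fit in which 0 of all RPFs passed. The summed thalamus markers in RPF were also higher with DHPG in replicates 1 to 4 (132 to 158, 127 to 189, 127 to 181 and 161 to 218 CPM) and lower in replicate 5 (159 to 133 CPM). Their part in the Sst values was not tested. Of the 10 genes, Gad1, Gad2, Slc32a1 and Lhx6, which Sst cells also make, had RPF changes of -0.05, 0.00, 0.01 and -0.01.

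The mean RPF profile of Gad1, Gad2 and Slc32a1, taken from their centred log2 CPM, spanned 0.19 log2 units over the 10 RPF libraries. Among 13201 genes with a range of at least 0.5 of that span, the 5 closest to it were Ahi1, Snrk, Hspa14, Tspyl1 and Lemd3, with mean absolute differences of 0.022 to 0.028 log2 units per library, against a median of 0.13. Of the other 7 genes, Calb1 came closest and ranked 319 (0.056), followed by Nos1 (0.11), Lhx6 (0.13), Pvalb (0.13), Calb2 (0.14), Erbb4 (0.19) and Reln (0.21). By replicate mean in RPF, Gad1, Gad2 and Slc32a1 were themselves highest in replicates 4, 3 and 1 and lowest in replicates 2, 5 and 3. Closeness to their mean therefore does not show that a gene varied with them.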

How the data were processed

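Hippocampal slice lysates had been sequenced by the authors as RNA-seq and RPF libraries. Per the labels and the study's methods, reads were trimmed with cutadapt, freed of rRNA with Bowtie2 and aligned to mm10 with TopHat2, and duplicates were removed by molecular identifier. The authors deposited RSEM expected counts per gene as whole numbers, unnormalized, on whole transcripts for RNA and on trimmed coding sequences for RPF. 12 columns of replicate numbers that match no sample were not used. RSEM divides reads between similar sequences, and strand use is not given in the sources used here.

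Counts were scaled by TMM, and log2 CPM used a prior count of 2. Genes passing filterByExpr were tested with edgeR 4.0.16 (R 4.3.3), quasi-likelihood F tests with the replicate number as a block, Benjamini-Hochberg adjusted over all genes tested, at 0.01 for RNA and 0.05 for RPF, ratio and replicate terms. The ratio was the interaction of assay and treatment over 19 libraries. The block was used because the study corrected counts for batch with ComBat, with replicate numbers taken here as the batches. Basal and DHPG libraries of the same number deviated together, with correlations of 0.308 to 0.741 in RNA and 0.259 to 0.523 in RPF. For different numbers they were -0.679 to 0.467 and -0.383 to 0.290. Basal RNA replicate 2 was closer to DHPG replicate 3 (0.467) than to DHPG replicate 2 (0.308). Deviations were taken from the mean of each treatment group, so part of the contrast with different numbers is built in. Lengths, composition and the bases shown came from GENCODE on GRCm38, to which 96.0% of symbols matched. The transcript with the longest coding sequence was used, and RPF lengths were reduced by 60 bases. Scripts were tested on simulated data. Alternatives used DESeq2 1.42.0 and ComBat (sva 3.50.0). In the main fits, p-values were set against the spread left once replicate number and treatment were fitted. Each library was a pool of slices. The test of replicate terms of the ratio, the removal of composition and length trends, the longest-transcript length and the alternatives printed for Sst were chosen after seeing the data.

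The members and lists were chosen with earlier results of these data known. All 10 genes were described in every comparison, and from each list the genes past the threshold or, failing these, at most the 4 with the highest basal RPF. Some genes that this rule names are not reported here. Gucy1a3 and Gucy1b3 are older symbols of Gucy1a1 and Gucy1b1. The genes with an RPF profile most like the mean profile of Gad1, Gad2 and Slc32a1 were taken by the mean absolute difference of centred log2 CPM.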

Additional observations from a re-analysis of the deposited data

Results flagged for a closer look

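Among 44 sets of libraries screened (10 genes and Sst, by assay and treatment), 1 had a single library standing well apart, where chance at 1 in 20 gives 2.2. Pvalb RNA was 27.4 CPM in DHPG replicate 2 and 15.03 to 18.6 CPM in the other 4 DHPG libraries. Pvalb RPF of the same replicate was also the highest of its group, at 52.4 CPM against 40.2 to 46.7 CPM. The cause was not tested.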

How the results depend on the processing

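Over all genes, the 1 RNA call with DHPG became 7 with no filter on low counts, 0 with at least 10 counts in every library, 0 with no replicate block, 0 with DESeq2 and the block, 100 with ComBat then DESeq2, and 0 to 22 with a replicate left out (0 without replicate 3, 22 without replicate 2, and 2 on leaving out replicate 1 or 4). The 29 RPF calls became 96 with no filter, 0 with no replicate block, 427 with ComBat then DESeq2 (1 of the 10 genes, Calb2), 8 at a threshold of 0.01, and 3 to 71 with a replicate left out (3 on removing replicate 2, 10 for replicate 1, 50 for replicate 5 and 71 for replicate 3). The 0 calls of the ratio became 3 with no filter and 0 to 8 with a replicate left out (8 on removing replicate 2 and 1 for replicate 1). In no other alternative was any of the 10 genes called with DHPG. The replicate differences in RNA numbered 3283 to 7010 with a replicate left out (3283 without replicate 3), with 2 to 7 of the 10 genes (2 without replicate 3), and 3 of the 10 with the composition and length trend removed, and those of the ratio held 2 to 6 of the 10 (2 without replicate 3). In RPF, 7 to 9 of the 10 genes passed with a replicate left out.

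Several changes with DHPG, none of them called, lay so near 0 that their sign turned. On the log2 scale in RNA, Slc32a1 was at -0.021 with no replicate block and -0.078 with the trend removed, Calb1 at 0.0011 and Nos1 at -0.068 with the trend removed, and Nos1 at -0.00102 with ComBat. With a replicate left out, RNA ranged from -0.12 to 0.0084 for Gad1, -0.040 to 0.013 for Gad2, -0.13 to 0.10 for Slc32a1, -0.071 to 0.040 for Reln and -0.097 to 0.054 for Nos1. In RPF, Lhx6 was at 0.0098 with no replicate block and 0.00090 with DESeq2, Gad2 at 0.0101 with the trend removed and 0.00016 with DESeq2, and Slc32a1 at -0.027 with the trend removed. With a replicate left out, RPF ranged from -0.016 to 0.0093 for Gad2, -0.022 to 0.042 for Slc32a1, -0.0080 to 0.048 for Reln, -0.0084 to 0.050 for Erbb4 and -0.030 to 0.028 for Lhx6. In the ratio, Slc32a1 was at -0.0025 with DESeq2 size factors, -0.0018 with no filter and -0.0019 with DESeq2, and Gad1 at -0.0044 and Calb1 at -0.034 with no replicate block. With a replicate left out, the ratio ranged from -0.10 to 0.15 for Slc32a1, -0.035 to 0.058 for Calb1, -0.040 to 0.049 for Gad1, -0.0080 to 0.038 for Gad2 and -0.093 to 0.033 for Nos1. The cause was not tested.

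Counts were lowest for Lhx6 and for Pvalb RNA, and RNA had 4 pairs. The 50 alternative values of basal RNA CPM and the 60 of basal RPF CPM moved by less than the spread between replicates.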
